A study of Mus musculus with 24 samples.

Results

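The proliferins are secreted hormones of the prolactin family, encoded in the mouse by the near-identical genes *Prl2c2*, *Prl2c3* and *Prl2c5*. Their signals were followed across 24 Agilent 1-colour arrays of HC11 cells, a mouse mammary epithelial line that makes milk proteins when treated with lactogenic hormones. Probes were assigned to the genes through the RefSeq accession that the array files give for each probe. By this rule 2 of the 55681 probes, A_52_P619248 and A_55_P2004752, belonged to the proliferins, and both measured *Prl2c5*, so that 1 of the 3 genes had a probe and *Prl2c2* and *Prl2c3* had none. The arrays carried 20145 genes with a symbol. The proliferins were chosen by the rise of *Prl2c5* in undifferentiated cells depleted of the long noncoding RNA *mPINC* with siPINC1.0/1.6, the largest rise of that contrast, so its values are given below as a description with no weight of evidence.

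All groups were cultures of the same cell line, each array held the RNA of 1 culture, and the replicates were biological according to the methods. The siRNA groups had received 10 nM of siRNA. siNEG was a negative control siRNA, siPINC1.0/1.6 combined siRNAs to *mPINC1.0* and to *mPINC1.6*, and siPINC combined siRNAs so that every splice form was a target, *DCR2* forms without a conserved region included. Without hormones (−LH) each siRNA group had n = 2 arrays, and with hydrocortisone, insulin and prolactin (+LH) each had n = 3. The lentivirus groups were made with LeGO vectors, were all +LH and had n = 3 arrays each: LeGO-GFP carried GFP as the control, LeGO-1.0/1.6 overexpressed *mPINC1.0* and *mPINC1.6*, and LeGO-DCR overexpressed a deletion mutant of *mPINC* without its terminal exons. The LeGO cells were transduced, expanded and frozen in aliquots, and whether replicates of a LeGO group came from separate transductions is not given in the sources used here. In the study's methods the hormone medium also lacks the EGF of the growth medium. How long the cells of the arrays were exposed to hormones is not given in the sources used here.

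Proliferins are known as products of the trophoblast giant cells of the placenta, where they act on endothelial cells and blood vessel growth, partly through the mannose 6-phosphate and IGF2 receptor. They are also called mitogen-regulated proteins, because serum and growth factors switch them on in cultured mouse cells. A proliferin promoter is a textbook site at which the glucocorticoid receptor and AP-1, the dimer of FOS and JUN proteins, act on a shared element. The other prolactin family genes encode pituitary prolactin, the placental lactogens and further placental hormones.

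RefSeq placed *Prl2c3*, *Prl2c2* and *Prl2c5* next to each other on chromosome 13. The promoters of *Prl2c5* and *Prl2c3* are shown because a probe of *Prl2c5* may also bind transcripts of its neighbours, and they let the likeness of the genes be seen. They span 250 bases before and 50 after the RefSeq transcript start (GRCm38.p6), on the + strand for *Prl2c5* (chr13:13182466-13182765) and the − strand for *Prl2c3* (chr13:12800030-12800329). Capitals mark matches to TGANTCA, an AP-1 site, to TTCNNNGAA, a STAT5 site, and to TGTTCT, a hexamer of the glucocorticoid receptor, each searched on both strands.
Prl2c5: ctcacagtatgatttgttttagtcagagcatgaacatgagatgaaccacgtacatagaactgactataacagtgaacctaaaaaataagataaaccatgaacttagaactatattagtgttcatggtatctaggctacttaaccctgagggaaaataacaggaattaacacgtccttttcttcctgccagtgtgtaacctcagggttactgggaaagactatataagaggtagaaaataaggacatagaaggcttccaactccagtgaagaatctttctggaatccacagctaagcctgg
Prl2c3: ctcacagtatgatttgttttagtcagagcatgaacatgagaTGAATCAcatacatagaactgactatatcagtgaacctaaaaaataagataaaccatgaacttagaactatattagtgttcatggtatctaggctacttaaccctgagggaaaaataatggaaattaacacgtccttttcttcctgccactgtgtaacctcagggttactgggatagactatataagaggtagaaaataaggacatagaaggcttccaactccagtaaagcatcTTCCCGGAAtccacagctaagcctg
Aligned, the promoters had 287 identical bases in 301 columns (95.3%), with 12 substitutions and 2 gap positions. The *Prl2c5* window held none of the 3 motifs. The *Prl2c3* window held an AP-1 match before the start and a STAT5 match after it, and no match to the hexamer. No entry for *Prl2c2* was found in the promoter table. Over 32851 mouse promoters of this length, 7.81% held the AP-1 letters, 8.3% the STAT5 letters and 19% the hexamer. The hexamer can share letters with a STAT5 match, and the matches shown did not overlap. The sequences of the array's probes were not used here, so binding to paralogues was not tested, and "*Prl2c5*" below stands for what its probes measured.

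Values are log2 processed signals after quantile normalization across all arrays. Between 24021 and 35798 probes per array were called well above background by the scanner software, and the number of arrays limits the precision. LeGO-1.0/1.6 replicate 1 stood apart, with the highest number of such probes, 644 outlier spots and a limit of detection of 2.29, the lowest log2 signal of a probe well above background on that array, against 3.25 to 5.02 on the others. The scanner files name 3 slides. Slide 1 held all −LH arrays, siNEG +LH replicate 1 and LeGO-GFP replicate 1, slide 2 the other +LH siRNA arrays and slide 3 the other LeGO arrays. The *mPINC* probe averaged 7.44 in siNEG −LH cells, 6.33 with siPINC1.0/1.6 (adjusted p = 0.0366 from limma) and 6.28 with siPINC (adjusted p = 0.147 from limma). It averaged 13.44 in LeGO-1.0/1.6 cells, 6.07 with LeGO-GFP and 6.06 with LeGO-DCR, which leaves overexpression of the mutant unchecked here. In +LH cells it averaged 4.87 with siNEG, 5.06 on the arrays labelled siPINC1.0/1.6 (log2 difference 0.19, adjusted p = 0.713 from limma) and 4.37 on those labelled siPINC (−0.50, adjusted p = 0.428 from limma). In these +LH groups the probe was well above background on 2 of 3 siNEG, 2 of 3 siPINC1.0/1.6 and 1 of 3 siPINC arrays. The +LH arrays thus showed no depletion of *mPINC* with siPINC1.0/1.6 and none that passed with siPINC. So close to the limit of detection a depletion could be missed, and whether the siRNAs acted there cannot be read from this probe. Of 10 mammary epithelial markers, 9 were well above background on every array, and *Krt19* was so on 1. Of 7 trophoblast markers, *Hand1* and *Psg17* were above background on 0 arrays, *Tpbpa* on 1 and *Ascl2* on 9. *Gcm1* and the placental lactogens *Prl3b1* and, by its brighter probe, *Prl3d1* were above on all 24. The other *Prl3d1* probe was above background on 1 array.

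*Prl2c5* was detected on 7 of the 24 arrays, and both probes picked the same 7. They were the 2 siPINC1.0/1.6 and the 2 siPINC arrays of −LH cells and the 3 LeGO-1.0/1.6 arrays. Every array of the siNEG, LeGO-GFP and LeGO-DCR groups, and every +LH array with an siRNA, was not well above background for either probe. The probes ran together, with a Pearson correlation of 0.923 over the 24 arrays and 0.908 over the 18 +LH arrays. These correlations are descriptions over arrays that fall into a high and a low cluster and were normalized together.

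**Figure D1:**
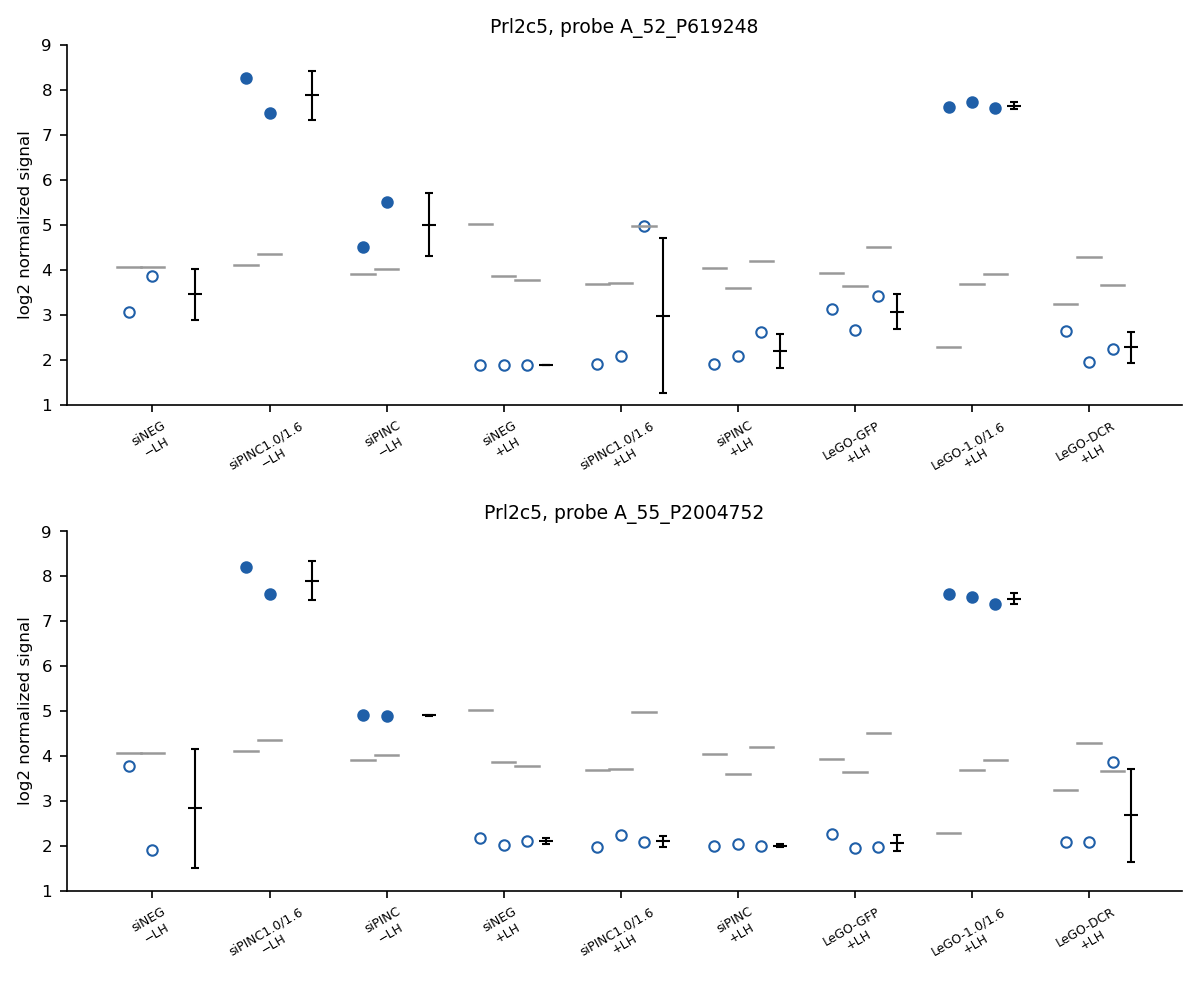
Log2 normalized signal (y axis) of the 2 *Prl2c5* probes on each array, by group (x axis). Filled points are well above background and open points are not, grey ticks are the lowest log2 signal of a probe well above background on that array, and black marks give the mean ± SD of the group. The filled points of siPINC1.0/1.6 −LH and of LeGO-1.0/1.6 lie between 7.38 and 8.27, and those of siPINC −LH between 4.51 and 5.50.

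In −LH cells, A_52_P619248 read 8.27 and 7.50 with siPINC1.0/1.6, 4.51 and 5.50 with siPINC, and 3.06 and 3.86 with siNEG. A_55_P2004752 read 8.21 and 7.60 with siPINC1.0/1.6, 4.92 and 4.90 with siPINC, and 3.77 and 1.90 with siNEG. On both probes the siPINC1.0/1.6 arrays read highest, the siPINC arrays came next, and the siNEG arrays were below the limit of detection. The share of all probes whose groups of 2 arrays lie apart in this way is not given here, so nothing is read from the separation. Where no array of a group was well above background, only a lower bound of a fold is given. For it, each array of the undetected group was set to its limit of detection, or to the signal of the probe if that was higher, and the detected group was divided by the mean of these values. Such a bound holds only for the quantile-normalized processed signals used here. Under normexp, another background correction, the *Prl2c5* differences printed below were smaller than their bounds. In siPINC1.0/1.6 cells, *Prl2c5* was at least 14.1-fold (A_52_P619248) and at least 14.2-fold (A_55_P2004752) higher than in siNEG cells, which are the values that chose the gene. The fitted log2 differences were 4.43 and 5.07. Of all 55681 probes, 2.96% passed an adjusted p of 0.05 in that contrast, and 1.52% passed it with a higher signal. A_55_P2004752 did not pass (adjusted p = 0.0526 from limma). A_52_P619248 passed (adjusted p = 0.0447 from limma), but not when any 1 of the 4 arrays was left out (adjusted p from 0.115 to 0.143). Among probes with a gene symbol that passed, A_52_P619248 had the largest rise and *Stfa1*, a stefin, was next with a log2 difference of 4.14. *Ces2g*, a carboxylesterase, had 4.44 without passing.

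With siPINC, which uses the same siNEG arrays as control, *Prl2c5* was at least 1.92-fold and at least 1.79-fold higher, by A_52_P619248 and A_55_P2004752. The log2 differences were 1.55 (standard error 0.52, adjusted p = 0.488 from limma) and 2.08 (standard error 0.69, adjusted p = 0.482 from limma), so 0 of the 2 probes was called. Under normexp these differences were 0.24 and 0.47, below the bounds, and with the series matrix 0.48 and 0.98. Without 1 array A_52_P619248 ranged from 1.06 (without siPINC replicate 2) to 2.04 and A_55_P2004752 from 1.14 (without siNEG replicate 2) to 3.01 (without siNEG replicate 1). In this contrast limma called 0% of the 55681 probes after adjustment, while 5391 had an unadjusted p under 0.05 from limma. Both *Prl2c5* probes were among these, with unadjusted p = 0.0406 and 0.0390 from limma. The methods' t-test called 2 probes after a Benjamini-Hochberg adjustment that was added here. For calling probes the study states thresholds on p and on fold change and names no adjustment, so this count is not its own.

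In +LH cells, in which the arrays showed no *mPINC* depletion that passed, the proliferin probes stayed under the limit of detection whatever the siRNA. A_52_P619248 read 1.89, 1.88 and 1.89 with siNEG, 1.89, 2.09 and 4.97 with siPINC1.0/1.6, and 1.90, 2.08 and 2.62 with siPINC. The reading of 4.97 came from the array whose limit of detection was 4.97, and A_55_P2004752 read 2.08 there. On A_55_P2004752 the 9 arrays lay between 1.98 and 2.23. No fold is given, because all 3 groups were below background. Of the 2 probes, 0 were called by limma in siPINC1.0/1.6 against siNEG (3.84% of all probes called), in siPINC against siNEG (0.681%) or in siPINC1.0/1.6 against siPINC (0.914%), with unadjusted p of at least 0.196. The methods' t-test called 0 of them as well. An interaction of siPINC with hormones was fitted but is not given, because 3 of its 4 groups were below background.

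Overexpression of *mPINC1.0* and *mPINC1.6* was a second setting in which *Prl2c5* was detected, and the rule did not use these arrays. A_52_P619248 read 7.63, 7.74 and 7.60 with LeGO-1.0/1.6, 3.13, 2.65 and 3.43 with LeGO-GFP, and 2.63, 1.95 and 2.25 with LeGO-DCR. A_55_P2004752 read 7.60, 7.55 and 7.38 with LeGO-1.0/1.6, 2.27, 1.95 and 1.98 with LeGO-GFP, and 2.08, 2.08 and 3.86 with LeGO-DCR. The LeGO-1.0/1.6 arrays were close to each other and above every array of the other groups, and replicate 1, the array that stood apart, was in their range. Against LeGO-GFP, *Prl2c5* was at least 12.3-fold higher by A_52_P619248 (log2 difference 4.59, standard error 0.23, adjusted p = 5.78e-06 from limma) and at least 11.1-fold higher by A_55_P2004752 (log2 difference 5.44, standard error 0.46, adjusted p = 7.36e-05 from limma). Thus 2 of 2 probes were called, where 30.3% of all probes were called in this contrast and 14.5% were called higher.

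Against LeGO-DCR the bounds were at least 15.2-fold and at least 13.1-fold, with log2 differences of 5.38 (standard error 0.23, adjusted p = 2.79e-06 from limma) and 4.83 (standard error 0.46, adjusted p = 0.000137 from limma), where 29.7% of all probes were called and 14.5% were called higher. LeGO-DCR and LeGO-GFP were both below background, so no fold is given. Neither probe was called between them (adjusted p = 0.743 and 1.00 from limma, unadjusted p = 0.0104 and 0.224), 0.0736% of all probes were, and the methods' t-test called 0 of the 2. Within slide 3 alone, LeGO-1.0/1.6 minus LeGO-GFP was 4.62 (adjusted p = 5.78e-05 from limma) and 5.54 (adjusted p = 0.000468 from limma). With the background correction normexp, which compresses low signals, these log2 differences were 1.96 and 1.68, below the bounds, and both probes still passed.

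Markers of mammary epithelial and other cell types were read on the same arrays. The summed signal of 7 fibroblast markers, of which 2 were above background on all arrays, lay between 9.99 and 10.08 on the log2 scale in LeGO-1.0/1.6 and between 13.66 and 13.92 in LeGO-GFP cells, and 0 of the 7 were below background on every array. In −LH cells it lay between 8.96 and 9.07 in siPINC1.0/1.6, 9.97 and 10.06 in siNEG and 10.80 in siPINC cells. The summed signal of the trophoblast markers lay between 12.16 and 12.23 in LeGO-1.0/1.6 and between 11.67 and 12.53 in LeGO-GFP cells. For immune markers the sum lay between 9.63 and 10.12 in LeGO-1.0/1.6 and between 10.25 and 10.37 in LeGO-GFP cells. For endothelial markers it lay between 11.06 and 11.35 and between 10.87 and 11.50, in the same order. For mammary epithelial markers it lay between 16.53 and 16.59 and between 16.84 and 16.92. Of 4 endothelial markers 2, and of 3 immune markers 1, were above background on all arrays. Signals were summed before the log2 step, so the brightest genes weigh most. *Gcm1* read 11.35 to 12.92 and every other trophoblast marker at most 6.65, so this sum follows *Gcm1*. Among fibroblast markers *Dcn* reached 13.66 and *Col3a1* 11.93, and the others at most 8.75. The part of these markers in the *Prl2c5* result was not tested, and in bulk RNA fewer cells of a type and less RNA per cell cannot be told apart.

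Lactogenic hormones were the remaining contrast. In siPINC cells, where *Prl2c5* was detected without hormones, it fell below the limit of detection with them. The hormone medium lacks the EGF of the growth medium, and the medium of the −LH arrays is not given in the sources used here. The *mPINC* probe averaged 6.28 in siPINC −LH and 4.37 in siPINC +LH cells. The part of the medium and of *mPINC* in the fall of *Prl2c5* was not tested. Some of the summed markers, which follow their brightest genes, moved in the same contrast. The sum went from 10.80 to between 12.35 and 12.59 for fibroblast markers, and from between 11.71 and 11.86 to between 12.45 and 12.87 for trophoblast markers. For mammary epithelial markers it went from between 17.69 and 17.71 to between 16.99 and 17.06. For endothelial markers the ranges overlapped, with 10.77 to 10.86 without and 10.72 to 10.97 with hormones. For immune markers they also overlapped, with 9.18 to 9.90 without and 9.34 to 10.33 with hormones. The part of these markers was not tested. A_52_P619248 was at least 2.09-fold lower (log2 difference −2.81, standard error 0.78, adjusted p = 0.0194 from limma) and A_55_P2004752 at least 1.95-fold lower (log2 difference −2.91, standard error 0.41, adjusted p = 0.000243 from limma), so 2 of 2 probes were called, where 28.0% of all probes were called and 14.6% were called lower. These −LH and +LH arrays lay on different slides. With a slide term in a joint fit of the 24 arrays the log2 differences were −2.80 (adjusted p = 0.107 from limma) and −2.80 (adjusted p = 0.0245 from limma), so the call of A_52_P619248 was lost. Under normexp the log2 differences were −0.54 and −0.61, below the bounds. The call of A_52_P619248 also ended without siPINC −LH replicate 2 (−2.32, adjusted p = 0.150 from limma), without siPINC +LH replicate 1 (−2.66, adjusted p = 0.0566 from limma) and without siPINC +LH replicate 2 (−2.75, adjusted p = 0.0510 from limma). In siPINC1.0/1.6 cells *Prl2c5* was at least 13.6-fold and at least 13.7-fold lower with hormones, a description, since the −LH arrays chose the gene, where 29.8% of all probes were called. In siNEG cells, where 27.1% of all probes were called, 0 of the 2 were, and both hormone states were below background (unadjusted p = 0.0696 and 0.101, adjusted p = 0.189 and 0.251 from limma). The methods' t-test also called 0 of them after Benjamini-Hochberg adjustment, and without siNEG −LH replicate 2 limma called 1. The siNEG −LH arrays are also the controls of the contrast that chose the gene.

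The order of the groups was the same on both probes for the 3 that were detected. siPINC1.0/1.6 −LH averaged 7.89 ± 0.54 (SD, n = 2) on A_52_P619248 and 7.90 ± 0.43 on A_55_P2004752, and LeGO-1.0/1.6 averaged 7.66 ± 0.076 (SD, n = 3) and 7.51 ± 0.12. The ranges of these groups overlapped on A_52_P619248 and touched on A_55_P2004752, where the lowest siPINC1.0/1.6 and the highest LeGO-1.0/1.6 array both read 7.60. siPINC −LH followed with 5.01 ± 0.70 and 4.91 ± 0.014 (SD, n = 2). The remaining 6 groups averaged between 1.88 and 3.46 and have no order, because values under the limit of detection are only bounds.

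*Prl2c1*, a gene of the same subfamily that lies elsewhere on chromosome 13, had a probe that was well above background on all 24 arrays, so its changes could be measured in both directions. In −LH cells *Prl2c1* read 10.51 and 10.76 with siNEG, 11.11 and 10.98 with siPINC1.0/1.6, and 10.67 and 10.72 with siPINC. In +LH cells it read 8.26, 8.34 and 8.43 with siNEG, 8.64, 8.55 and 8.50 with siPINC1.0/1.6, and 8.29, 8.48 and 8.28 with siPINC. In the lentivirus groups it read 9.11, 9.26 and 9.20 with LeGO-GFP, 12.09, 12.11 and 12.03 with LeGO-1.0/1.6, and 9.24, 9.27 and 9.23 with LeGO-DCR. LeGO-1.0/1.6 thus held the highest values and +LH siRNA cells the lowest, and no −LH array overlapped a +LH siRNA array.

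*Prl2c1* was 7.38-fold higher in LeGO-1.0/1.6 than in LeGO-GFP cells (log2 difference 2.88, standard error 0.054, adjusted p = 1.06e-07 from limma) and 7.10-fold higher than in LeGO-DCR cells. With hormones it fell by 2.34 on the log2 scale in siPINC cells (standard error 0.095, adjusted p = 2.25e-08 from limma), by 2.29 in siNEG cells and by 2.48 in siPINC1.0/1.6 cells. The siRNA differences of *Prl2c1* did not pass: 0.41 (standard error 0.11, adjusted p = 0.159 from limma) for siPINC1.0/1.6 and 0.059 for siPINC in −LH cells, and 0.22 and 0.0094 in +LH cells. The −LH difference for siPINC1.0/1.6 did pass with a slide term in the joint fit (adjusted p = 0.00657 from limma) and under normexp (0.38, adjusted p = 0.0338 from limma). Over the 24 arrays *Prl2c1* had a Pearson correlation of 0.873 with A_52_P619248, a description over arrays that form clusters.

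**Figure D2:**
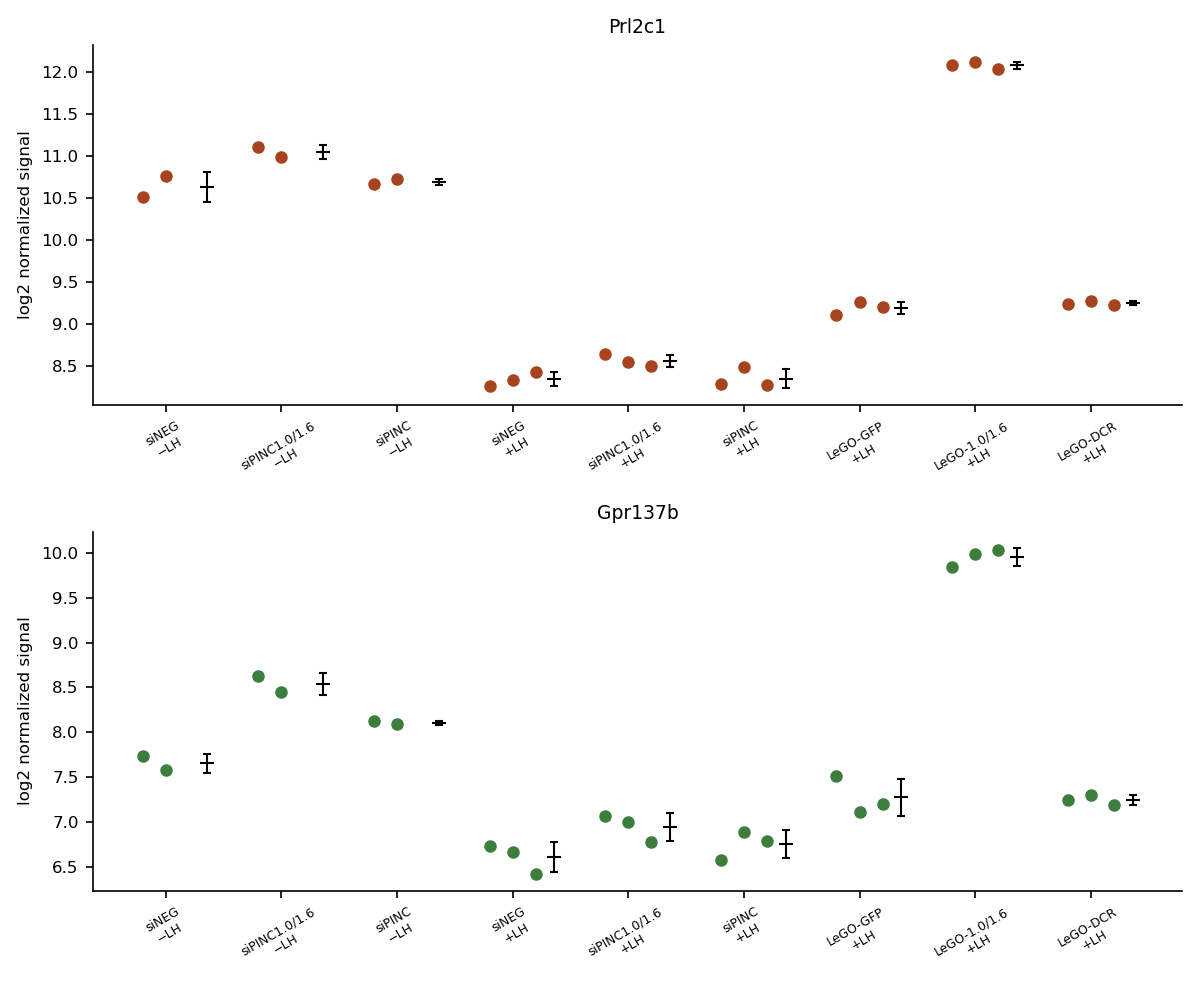
Log2 normalized signal (y axis) of *Prl2c1* (upper panel) and *Gpr137b* (lower panel) on each array, by group (x axis); black marks give the mean ± SD. All points are well above background, the LeGO-1.0/1.6 arrays lie highest in both panels (12.03 to 12.11 and 9.84 to 10.04), and the +LH siRNA arrays lie lowest.

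Of 24 further gene names listed for the prolactin family, 22 were measured, by 26 probes. The listed name *Prl2c4* had no probe and is a RefSeq synonym of *Prl2c3*, so it is no gene outside the proliferins. For 8 of the 22 no probe was above background on any array, among them *Prl7d1*, the proliferin-related protein, and *Prl8a2*, the decidual prolactin-related protein. In LeGO-1.0/1.6 against LeGO-GFP cells, 6 of the 22 rose and 0 fell, and their median log2 difference was 0.097. Over all 20145 gene symbols 22.6% rose, 23.1% fell, and the median was −0.0065. Besides *Prl2c1*, *Prl2a1* rose most, at least 7.83-fold (log2 difference 4.90, standard error 0.45, adjusted p = 0.000119 from limma), followed by *Prl8a9*, at least 3.82-fold (log2 difference 4.0, standard error 0.080, adjusted p = 1.28e-07 from limma). *Prl2a1* was above background on all 3 LeGO-1.0/1.6 arrays, on 1 LeGO-DCR array and on 1 siPINC1.0/1.6 −LH array, and *Prl8a9* on the 3 LeGO-1.0/1.6 arrays only.

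The others that rose were *Prl*, pituitary prolactin (log2 difference 2.04), *Prl3d2*, a placental lactogen I gene (1.43), and *Prl2b1* (0.77). *Prl* was above background on the 3 LeGO-1.0/1.6 arrays, and *Prl3d2* and *Prl2b1* among these only on replicate 1. Without that array 8 of the 22 rose, with *Prl3b1*, placental lactogen II (0.52), and *Prl3d1*, placental lactogen I (0.85), in addition. Without LeGO-GFP replicate 2 or 3, or LeGO-1.0/1.6 replicate 2 or 3, 5 rose and *Prl2b1* no longer passed. Without LeGO-GFP replicate 2, 1 fell, *Prl8a8* (−0.86), and without LeGO-GFP replicate 3, 1 fell, *Prl5a1* (−0.28). Shares over all gene symbols are not given for these fits, so nothing is read from their counts. *Prl6a1* showed how probes of a gene can differ: its brighter probe had a log2 difference of 0.65 (adjusted p = 0.119 from limma) and its other probe 2.32 (adjusted p = 0.00226 from limma). Against LeGO-DCR cells 5 of the 22 rose and 0 fell, where 23% of all gene symbols rose and 22.5% fell. Between LeGO-DCR and LeGO-GFP cells 0 of the 22 were called by limma, where 0.00496% of all gene symbols rose and 0.0347% fell. In siPINC1.0/1.6 and siPINC against siNEG +LH cells 0 of the 22 were called as well. Over all gene symbols 3.91% rose and 2.5% fell with siPINC1.0/1.6, and 1.11% rose and 0.243% fell with siPINC. With shares this low, nothing is read from these counts. With hormones in siPINC cells 0 rose and 3 fell, which were *Prl2c1*, *Prl6a1* and *Prl7a1*, and the last 2 stayed under the limit on every siPINC array. Over all gene symbols 20.5% fell in this contrast. With the slide as a term, 1 of the 22 fell, where 11499 of 55681 probes were called in either direction.

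**Figure D3:**
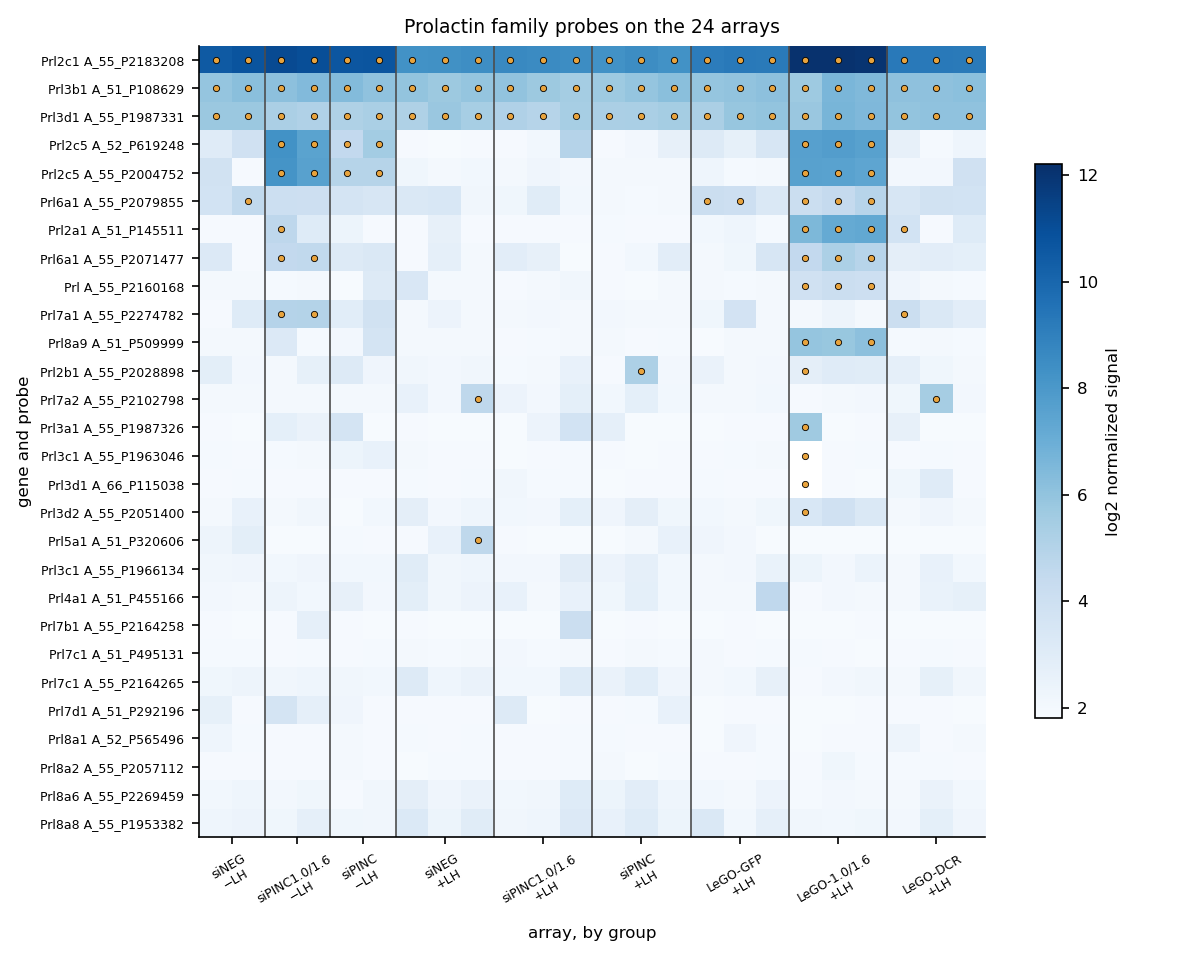
Log2 normalized signal (colour) of the prolactin family probes (rows) on the 24 arrays (columns, by group). Orange points mark signals well above background; *Prl2c1*, *Prl3b1* and a *Prl3d1* probe are marked on every array, the 2 *Prl2c5* probes on 7 arrays, and most of the remaining marks lie in the LeGO-1.0/1.6 and siPINC1.0/1.6 −LH columns.

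Receptors and signalling genes of the prolactin and proliferin hormones were measured for 11 of 11 listed. In LeGO-1.0/1.6 against LeGO-GFP cells 5 rose and 5 fell (median log2 difference 0.091), where 22.6% of all gene symbols rose and 23.1% fell, shares that also stand behind the next 3 lists. *Socs3* (1.11) and *Socs2* (0.86), feedback inhibitors of cytokine signalling, rose most. *Cish*, another such inhibitor (−1.22), and *Prlr*, the prolactin receptor (−0.90), fell most, and *Igf2r*, the mannose 6-phosphate and IGF2 receptor, fell by 0.60. With hormones in siPINC cells 7 rose and 1, *Socs3*, fell (median 0.69), while all gene symbols had 21.1% that rose and a median of 0.015. *Cish* (2.08) and *Ghr*, the growth hormone receptor (1.94), rose most, *Igf2r* rose by 0.69, and *Prlr* had 0.20 without passing. On the +LH arrays labelled siPINC1.0/1.6 1 of the 11 rose against siNEG, *Socs3*, and 6 fell, among them *Stat5a*, *Jak2* and *Igf2r*, where 3.91% of all gene symbols rose and 2.5% fell.

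Of 14 AP-1 and immediate early genes, 6 rose and 4 fell in LeGO-1.0/1.6 against LeGO-GFP cells (median log2 difference −0.018). *Fosl1*, an AP-1 subunit, rose most with 3.95, and *Myc* followed with 1.64. *Junb* rose by 0.70. *Jund* (−1.43) and *Jun* (−0.91) fell most, and *Fos* had −0.040 without passing. In siPINC cells with hormones 5 rose and 3 fell (median 0.016), where 21.1% of all gene symbols rose and 20.5% fell. *Fosl1* (−3.98) and *Myc* (−2.95) fell most, *Jun* (1.39) and *Atf3* (1.06) rose most, *Fos* rose by 0.61, and *Junb* had −0.23 without passing.

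The glucocorticoid receptor and its known targets were measured for 12 of 12. With hormones, which include the glucocorticoid hydrocortisone, 9 rose and 1 fell in siPINC cells (median log2 difference 1.13), where 21.1% of all gene symbols rose and 20.5% fell. *Tsc22d3*, the glucocorticoid-induced leucine zipper (3.90), and *Fkbp5*, a receptor co-chaperone (2.90), rose most, *Nr3c1*, the receptor, rose by 0.68, and *Cdkn1a* fell by 0.44. In LeGO-1.0/1.6 against LeGO-GFP cells, all +LH, 2 rose and 8 fell (median −0.64). *Mt2* (1.53) and *Klf9* (0.25) rose, *Zbtb16* (−2.02) and *Dusp1* (−1.49) fell most, and *Nr3c1* fell by 0.54.

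Of 12 angiogenic factors, 4 rose and 6 fell in LeGO-1.0/1.6 against LeGO-GFP cells (median log2 difference −0.055). *Vegfc* (2.85) and *Vegfa* (1.28) rose most, and *Fgf1* (−3.66) and *Pgf*, placental growth factor (−1.54), fell most. With hormones in siPINC cells 4 rose and 2 fell (median 0.13), where 21.1% of all gene symbols rose and 20.5% fell. Between LeGO-DCR and LeGO-GFP cells limma called 0 genes in each of the 5 lists, where 41 of all probes were called. The lists differ in their share of detected genes, and nothing is read from their medians beyond these values.

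**Figure D4:**
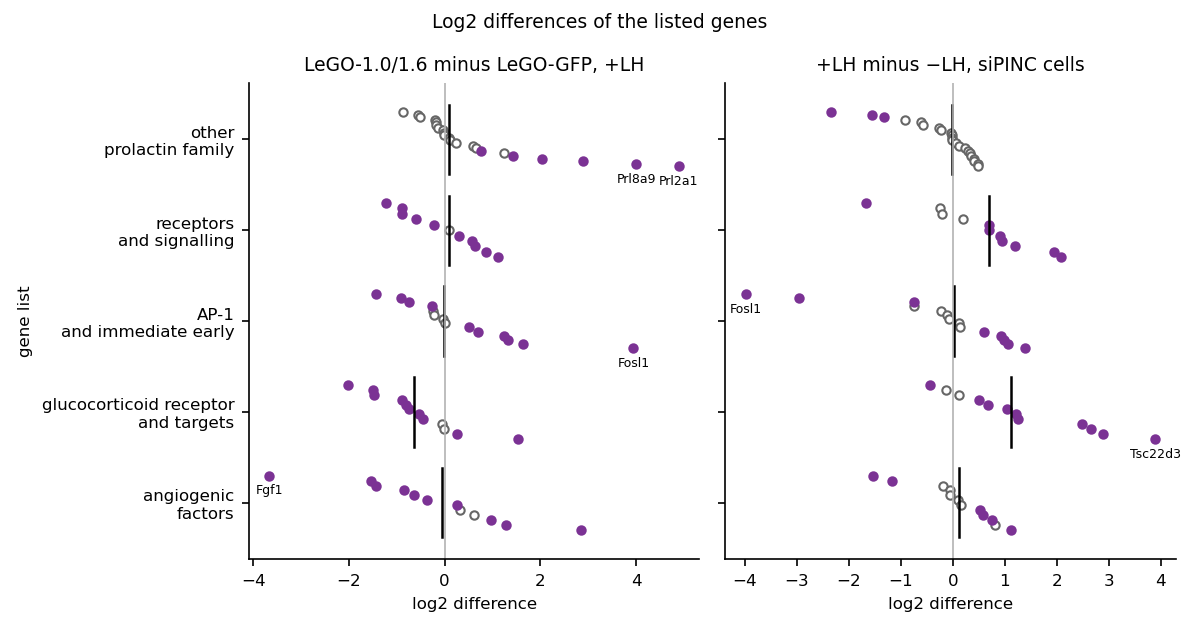
Log2 difference (x axis) of each listed gene, by list (y axis), in LeGO-1.0/1.6 against LeGO-GFP +LH cells (left) and in +LH against −LH siPINC cells (right). Filled points pass an adjusted p of 0.05 from limma, open points do not, and black lines are medians; *Fosl1* lies at 3.95 on the left and at −3.98 on the right.

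The neighbours of the proliferin genes on chromosome 13 were read for comparison: the 5 nearest protein-coding genes with a curated RefSeq transcript on each side, in order *Actn2*, *Heatr1*, *Lgals8*, *Edaradd* and *Ero1b*, then *Gpr137b*, *Nid1*, *Lyst*, *Gng4* and *B3galnt2*. They were chosen after other results were known, by position. In LeGO-1.0/1.6 against LeGO-GFP cells 3 of the 10 rose, *Gpr137b*, *Heatr1* and *Ero1b*, and 1 fell, *B3galnt2*, where 22.6% of all gene symbols rose and 23.1% fell. *Gpr137b*, a lysosomal membrane protein gene and the one next to *Prl2c5*, read 9.84, 9.99 and 10.04 with LeGO-1.0/1.6, 7.51, 7.11 and 7.20 with LeGO-GFP, and 7.25, 7.30 and 7.19 with LeGO-DCR. Its log2 difference from LeGO-GFP was 2.68 (standard error 0.11, adjusted p = 2.29e-06 from limma). *Heatr1*, a ribosome biogenesis factor, rose by 1.03, *Ero1b*, an oxidase of the endoplasmic reticulum, rose by 0.77, and *B3galnt2*, a glycosyltransferase, fell by 0.36.

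*Gpr137b* was also the only neighbour called in siPINC1.0/1.6 −LH cells, where 2.65% of all gene symbols rose, with 8.62 and 8.45 against 7.73 and 7.58 in siNEG cells (log2 difference 0.88, standard error 0.094, adjusted p = 0.0398 from limma), and siPINC arrays read 8.12 and 8.09. With hormones it fell by 1.35 in siPINC cells (adjusted p = 1.19e-05 from limma), where *Heatr1* and *B3galnt2* fell and *Lgals8*, a galectin, rose. *Gpr137b-ps*, a related pseudogene, lies on the other side of the proliferins, so reads of the *Gpr137b* probe from it cannot be told apart here. *Actn2*, *Nid1* and *Gng4* were below background in both siNEG and siPINC1.0/1.6 −LH cells.

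**Figure D5:**
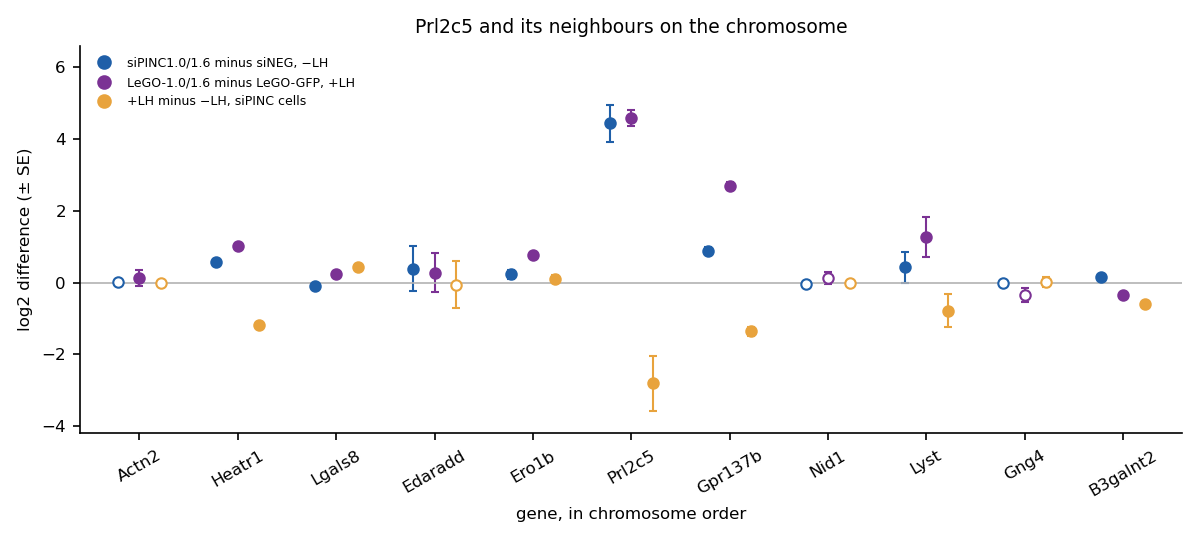
Log2 difference ± standard error (y axis) of *Prl2c5* (A_52_P619248) and its 10 neighbours in chromosome order (x axis) for 3 contrasts (colours). Open points are below background in both groups, and each *Prl2c5* value is fitted against a group below background; *Gpr137b* has 0.88, 2.68 and −1.35 and lies next to *Prl2c5*.

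The genes whose arrays ran most like A_52_P619248, by Pearson correlation over the 24 arrays, were *Klhdc2* (0.953), *Il18rap* (0.949), *Cpox* (0.944), *Sft2d1* (0.939) and *Ercc1* (0.939). *Il18rap*, an interleukin 18 receptor subunit, averaged 6.06 with siPINC1.0/1.6, 3.85 with siPINC and 2.63 with siNEG in −LH cells. It averaged 6.50 in LeGO-1.0/1.6 cells, and between 1.93 and 2.27 in the other groups. It was well above background only in siPINC1.0/1.6 −LH and LeGO-1.0/1.6 cells, so its other averages have no order. *Cpox*, an enzyme of haem synthesis, averaged 10.72 with siPINC1.0/1.6, 10.41 with siPINC and 10.12 with siNEG in −LH cells, and 10.69 in LeGO-1.0/1.6 cells. Over the 18 +LH arrays the most alike were *Cep43* (0.978), *Cyth4* (0.976), *Cgref1* (0.966), *Fam126a* (0.964) and *Yy1* (0.962). Of these arrays only the 3 of LeGO-1.0/1.6 detected *Prl2c5*, so the correlations mainly follow that split. Against LeGO-GFP, 14.5% of all probes were called higher there. *Cyth4* was well above background only in LeGO-1.0/1.6 cells and averaged 1.88 in siPINC1.0/1.6 −LH cells. None of the genes named for likeness was among the 5 most alike by Spearman correlation, which ranks the arrays on which *Prl2c5* was below background. These values describe 24 arrays, out of 18142 probes compared.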

How the data were processed

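RNA of 24 HC11 cultures was hybridised to Agilent 1-colour arrays. The authors deposited Feature Extraction intensity values (processed signal, corrected for background within each array) and quantile-normalized log2 values in a series matrix. Here the 59305 processed signals of each array that are no control spots were log2 transformed and quantile normalized, outlier spots (146 to 644 per array) were left out, and spots of a probe were averaged to 55681 probes. Symbols for 26582 probes came from RefSeq accessions. Groups were compared in R 4.3.3 by limma 3.58.1 (lmFit, eBayes), with Benjamini-Hochberg adjustment over all probes, in separate fits for −LH, +LH siRNA and LeGO arrays and for the hormone contrasts. A gene with several probes is represented by its brightest. Genes named are every proliferin probe, *Prl2c1*, the genes called in each list (all where there were 5 or fewer, otherwise the 2 largest each way), 7 fixed genes, and the 5 most alike. The members and lists were chosen with earlier results of these data known. Replicates are biological per the methods. Promoters were searched in Python 3.11.15 and aligned with Biopython 1.88. The analysis was tested on simulated data. The alternatives were the 75th percentile, normexp with an offset of 50, the series matrix, bright probes, the methods' t-test, a slide term and a replicate block. Each array was also left out, and, chosen after seeing the data, arrays of 1 slide were fitted alone. The methods' t-test was given the same Benjamini-Hochberg adjustment here, which the methods do not name.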

Additional observations from a re-analysis of the deposited data

How the results depend on the processing

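The rise of *Prl2c5* in LeGO-1.0/1.6 cells against LeGO-GFP and LeGO-DCR cells kept its direction and call on both probes under every alternative run, with log2 differences of 1.96 to 4.76 against LeGO-GFP on A_52_P619248. In the +LH siRNA contrasts, where *mPINC* depletion did not pass, and between LeGO-DCR and LeGO-GFP, 0 probes were called under every alternative, and bright probes alone gave no value for the +LH siRNA arrays, because *Prl2c5* was not among them. In siPINC1.0/1.6 −LH cells the log2 difference of A_52_P619248 moved from 4.43 to 1.94 under normexp and to 2.87 with the series matrix, both below its bound. Its call there was lost under the 75th percentile, the series matrix, the replicate block, the methods' t-test and each left-out array. Of all 55681 probes, 154 were called there under the 75th percentile and 214 with the series matrix. The replicate block called 0 and the methods' t-test 1, against 1650 in the main fit. Nothing particular to *Prl2c5* is therefore read from the loss. With hormones in siPINC1.0/1.6 cells the log2 difference of A_52_P619248 moved from −4.91 to −2.08 under normexp, below its bound. With hormones in siPINC cells A_52_P619248 was no longer called under the 75th percentile (−2.54, adjusted p = 0.0557 from limma) or with a slide term (−2.80, adjusted p = 0.107 from limma), and leaving out 1 array at a time gave −3.31 to −2.32, with adjusted p from 0.0310 to 0.150. In siNEG cells with hormones, leaving out 1 array gave 0 to 1 probes called. The siPINC differences of *Prl2c1*, which passed in no fit, changed sign: in −LH cells to −0.067 when 1 array was left out (range −0.067 to 0.19), and in +LH cells to −0.0035 under normexp, −0.0039 with the series matrix, −0.031 with a slide term and −0.031 on 1 slide (leaving out 1 array, −0.057 to 0.052). The causes were not tested. Signal over background limits every contrast in which a group was undetected.

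The samples were treated as unpaired. Deviations of same-numbered arrays had correlations of 0.056 to 0.14 (−LH), −0.46 to 0.15 (+LH siRNA) and −0.035 to 0.25 (LeGO). Arrays with different numbers had −0.14 to −0.056 (−LH), −0.24 to 0.31 (+LH siRNA) and −0.21 to 0.16 (LeGO). With n = 2 the deviations within a group mirror each other, so the −LH values cannot decide whether replicates were paired. With a replicate block LeGO-1.0/1.6 minus LeGO-GFP was 4.59 (adjusted p = 0.000135 from limma) and hormones in siPINC cells gave −3.21 (adjusted p = 0.00807 from limma). The block moved the count of all probes called from 1650 to 0 in siPINC1.0/1.6 −LH cells and from 2140 to 850 in siPINC1.0/1.6 +LH cells.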
